A study of Homo sapiens with 6 samples.

Results

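The 10 genes described here encode RNA helicases of the spliceosome, the machine that removes introns from pre-mRNA: DHX8, DHX15, DHX16, DHX38, AQR, DDX46, DDX42, DDX39B, DDX41 and DHX35. They were taken by name, and their members are all peaks whose summit lies within the RefSeq span of a gene on GRCh38. Peak lists were examined for 3 samples of RNA immunoprecipitation followed by sequencing (RIP-seq), a method that recovers the RNAs bound by a protein, here SmD2, the Sm ring subunit encoded by SNRPD2, in a study of its relation to pseudouridine in RNA. The samples came from HEK293T cells, an established human embryonic kidney line, with SNRPD2 overexpression (genotype SNRPD2OE). The 3 control samples (genotype Ctrl) of the same line were not analysed here, so no list below is compared with a control list. The folds and p come from the peak caller, and the sources do not say which background library it used. The labels do not say whether replicates came from separate cultures, and their spread may be technical. The 10 spans together held 194 of the summits: 32 of 30111 in replicate 1, 106 of 160931 in replicate 2 and 56 of 65097 in replicate 3.

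Spliceosomal helicases use ATP to remodel RNA and RNA-protein contacts, and each acts at its own step of the splicing cycle. The best known were worked out in budding yeast, where they carry Prp names. DDX39B (UAP56), DDX46 (Prp5) and DDX42 (SF3b125) are linked to the joining of the U2 particle to the branch site, DHX16 (Prp2) and DHX38 (Prp16) to the catalytic steps, and DHX8 (Prp22) and DHX15 (Prp43) to the release of mRNA and the dismantling of the complex. AQR binds the intron and belongs to another helicase superfamily than the DEAD and DEAH box proteins, although it is grouped with them here. A peak in one of these genes stands for RNA from its span, not for the protein it encodes. Of the 194 summits, 13 also lie in another annotated gene.

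The lists differed before any gene was considered. Median peak width was 77, 40 and 12210 bp in replicates 1, 2 and 3. Each peak has a deposited −log10 p and a fold, which together return the number of reads at its summit and the background that the caller expected there, in reads of the same sample. Peaks were listed from an unadjusted −log10 p of 2.002 upwards, and 80.6%, 83.5% and 95.3% of them had a −log10 q of 0. In replicate 3 a summit needed 4 reads to count as 1 in the caller's scaled pileup, and 72.9% of its peaks lay below that. The deposited p of such a peak equals the one computed here for a summit with no read at all. The strongest peak of a gene in a list is the one with the highest −log10 p. SNRPD2 itself had 78, 80 and 78 reads at its strongest summit, and no solved number in the same list was higher. Read numbers were tried only up to a set limit, and 30 peaks of replicate 3 had no solution. Peak lists give no expression levels, so the cell line was not checked against marker genes.

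All 10 helicase genes had peaks in at least 1 list, and 7 had them in every list. A summit was found in 9, 10 and 8 of the genes in replicates 1, 2 and 3, where 45.3%, 76.7% and 65.5% of all 20037 protein-coding genes had one. The 7 with a summit in every list were DHX8, DHX15, DHX38, AQR, DDX46, DDX42 and DHX35, and 38.5% of protein-coding genes met the same rule. Among protein-coding genes whose span was no shorter and no longer than those of the helicase genes, 41.7% did. Length was not matched within that range. The median span was 51.3 kb for the 10 genes and 24.1 kb for all protein-coding genes. The other 3 helicase genes missed 1 list each: DHX16 had no summit in replicate 1, and DDX39B and DDX41 had none in replicate 3. The difference from other genes was not tested, since the 10 genes were named with earlier results of these data known.

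**Figure D1:**
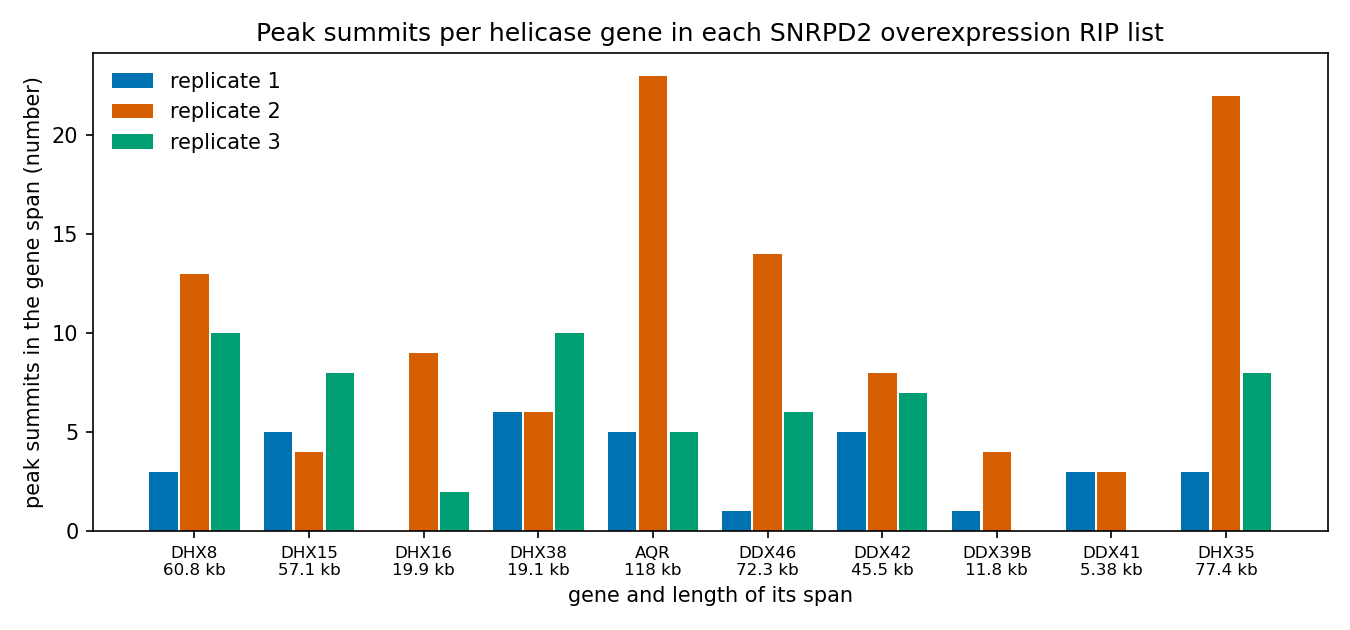
Number of peak summits (vertical axis) in the span of each helicase gene (horizontal axis, with span length in kb), 1 bar per replicate of SNRPD2 overexpression RIP-seq and no error bars. Replicate 2 had the most summits in AQR (23) and DHX35 (22), while DHX38 had 6, 6 and 10.

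Summits were denser in the helicase genes than over protein-coding genes as a whole. Their combined span of 487.0 kb held 0.657, 2.18 and 1.15 summits per 10 kb in replicates 1, 2 and 3 (mean 1.33 ± 0.775, SD, n = 3), where all protein-coding spans together held 0.219, 0.934 and 0.363. The background that the caller assigned to the peaks was also higher, with a median of 1.205, 0.849 and 0.2995 reads in the helicase genes. Over all peaks in protein-coding genes whose strand was given it was 0.195, 0.0722 and 0.0316 reads. Median reads at the summit were 7, 5 and 6 in the helicase genes, against 5, 1 and 2 over those peaks. In replicate 3, 66.5% of those peaks were wider than 1000 bp, against 25.0% in the helicase genes. The background and the density were thus both above those of all genes, and the part of transcript abundance in the counts was not tested.

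Density was not even among the 10 genes. DHX38, the helicase of the second catalytic step, had 3.15, 3.15 and 5.24 summits per 10 kb, which ranked at percentiles 96.6, 85.7 and 98.9 of protein-coding genes. It was high in all 3 lists. DDX41, the shortest gene at 5.38 kb, had 5.57 in replicates 1 and 2 and none in replicate 3. DDX46 had 0.138, 1.94 and 0.829, and AQR, the longest gene at 118.0 kb, had 0.424, 1.95 and 0.424. In both genes replicate 2, the longest list, was the highest.

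All 3 lists met in DHX8, DHX38 and DDX42, and in DHX35 only through a wide peak of replicate 3. A segment of at least 20 bp covered by a peak of every list was found in these 4 of the 10 genes. Over protein-coding genes 10.8% had one, also among those within the same range of span, where length was not matched. There were 5 such segments, 2 of them in DHX8. With peaks of at most 1000 bp only, DHX35 lost its segment and 3 of the 10 genes remained, against 5.97% of protein-coding genes. Replicates 2 and 3 together covered a segment in 7 of the genes, where DHX15, AQR and DDX46 joined the 4, but so did 56.2% of protein-coding genes. Replicates 1 and 2 did so in 5 genes (24.6% of protein-coding genes), and replicates 1 and 3 also in 5 (23.8%).

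Peak by peak, the lists met in part. Replicate 1 had 32 peaks in these genes, and 14 of them (43.8%, exact Clopper-Pearson 95% interval 26.4% to 62.3%, for counting error only) touched replicate 2 with 1 bp or more, where 35.0% of its peaks in protein-coding genes did. The interval treats the peaks of 1 sample as independent, so it is no test against all genes. It holds the value for all genes, but the intervals of some other pairs do not. In the other direction 14 of the 106 peaks of replicate 2 (13.2%) overlapped replicate 1, against 8.31%. Replicate 3 was met by 11 of the 32 peaks of replicate 1 (34.4%, against 29.2%) and by 34 of the 106 peaks of replicate 2 (32.1%, against 47.2%). Of the 56 peaks of replicate 3, 11 (19.6%, against 16.5%) met replicate 1 and 25 (44.6%, against 57.7%) met replicate 2. Shares that involve replicates 2 and 3 were thus below those of all genes, where wide peaks of replicate 3 were more common (66.5% of its peaks in protein-coding genes and 25.0% in the helicase genes). With peaks of at most 1000 bp, 10 of 32 peaks of replicate 1 (31.2%) and 17 of 106 peaks of replicate 2 overlapped replicate 3, against 14.5% and 4.47% for protein-coding genes. Among the 42 such peaks of replicate 3, 10 (23.8%, against 27.2%) met replicate 1 and 17 (40.5%, against 35.2%) met replicate 2. Peaks that met no peak of either other list numbered 13, 64 and 27 in replicates 1, 2 and 3. Neither this count nor the count of sites that follows was made over all protein-coding genes, so neither is called high or low. Grouping overlapping peaks of at most 1000 bp gave 30 sites of at least 2 lists. In 6 of them all 3 lists were joined, at 12.5% of DHX38 only because a peak of replicate 3 touched both others. At these sites the summits of different lists lay a median of 27.5 bp apart (range 1 to 178).

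**Figure D2:**
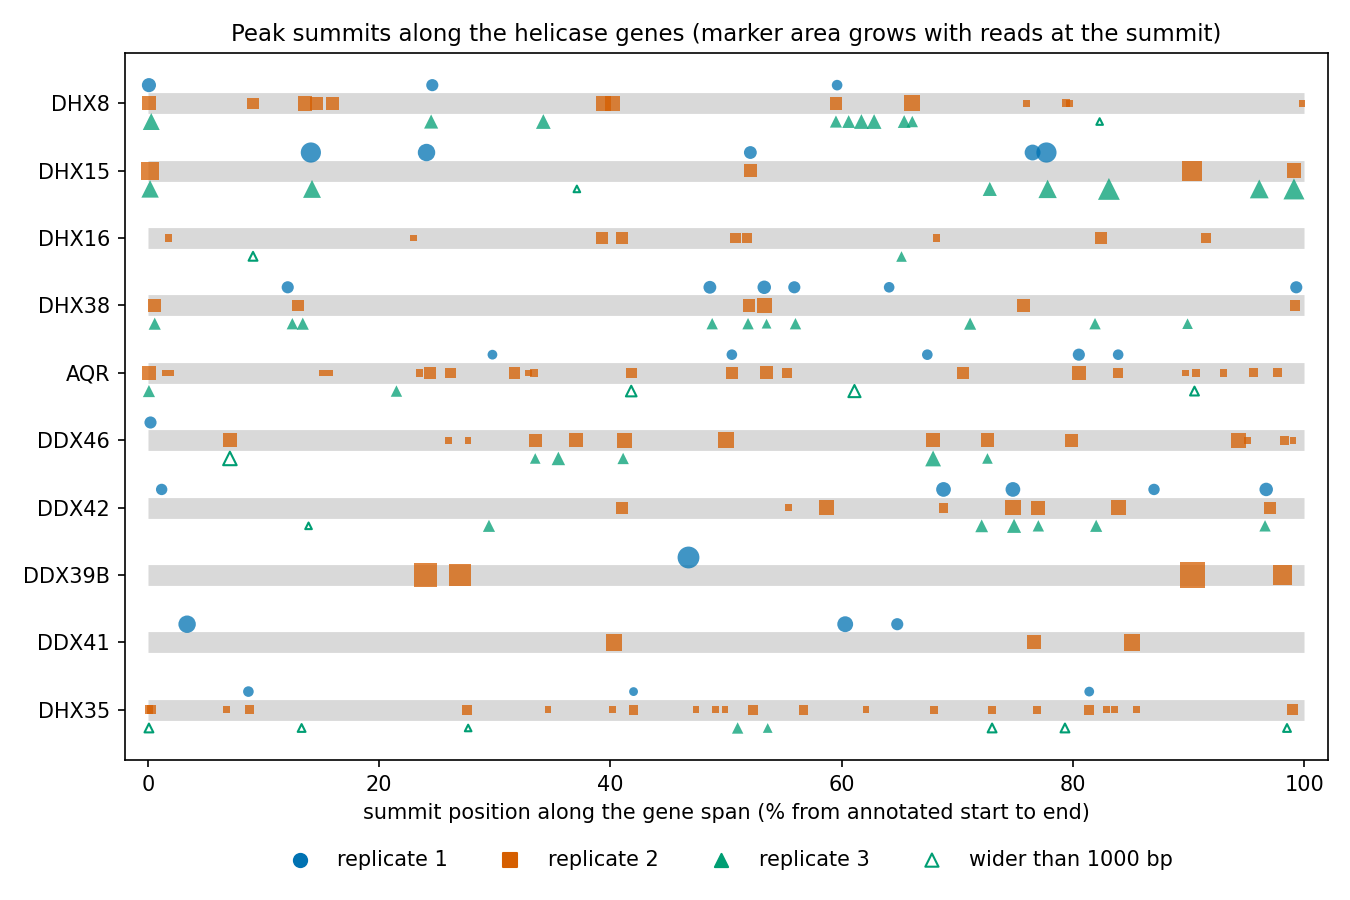
Position of every summit along its gene (horizontal axis, percent of the span from the annotated start to the annotated end) for the 10 helicase genes, with 1 row of markers per replicate. Marker area grows with the reads at the summit, and open markers are peaks wider than 1000 bp, all in replicate 3. Summits of several lists stand above each other near the start of DHX8 and near 74.8% of DDX42.

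Among the helicases linked to early steps, DDX42 had the most reproducible peak and DDX39B the least. DDX42 encodes a DEAD box protein first found with the SF3B complex of the U2 particle, and its span is chr17:63773800-63819317 (plus strand). It had 5, 8 and 7 summits. At 74.8% of the span, within chr17:63807782-63807869, the 3 lists shared 88 bp. The folds there were 5.62, 2.82 and 3.28 with 11, 12 and 10 reads. Each list thus had at least 10 reads at this place, and in replicate 1 it was the strongest peak of the gene. At 96.7% a second site of all lists had 9, 7 and 6 reads (folds 4.36, 4.46 and 2.26), but its summits spread over 178 bp and the lists shared no segment of 20 bp. The strongest peak of replicate 2, with a fold of 6.39 from 7 reads at 41.0%, had no partner in the other lists.

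DDX46, which proofreads the pairing of U2 with the branch site, lies at chr5:134758779-134831121 (plus strand) and had 1, 14 and 6 summits. Its 4 narrow sites were all of replicates 2 and 3, at 33.5%, 41.2%, 67.9% and 72.6% of the span. The summits of the strongest peaks of those 2 lists, both at 7.1%, were 5 bp apart, with folds of 3.92 from 10 reads and 3.26 from 9 reads. The peak in replicate 3 was 2623 bp wide and the one in replicate 2 was 41 bp wide. The lone peak of replicate 1 stood 114 bp from the annotated start with 7 reads.

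DDX39B, needed for branch site recognition and for export of mRNA, lies at chr6:31530226-31542003 (minus strand). It had 1, 4 and 0 summits, and none of its peaks overlapped one of another list. Reads were many, with 26 in replicate 1 and 20 to 35 in replicate 2, while folds were low, at 1.84 in replicate 1 and 1.53 to 2.09 in replicate 2. The median background was 13.3 and 17.1 reads, the highest of the 10 genes in both lists. Peaks there were called only at low fold over many reads. All 5 summits also lie in the readthrough gene ATP6V1G2-DDX39B, and the peak of replicate 1 reaches into the snoRNA gene SNORD117, although its summit lies outside it.

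**Figure D3:**
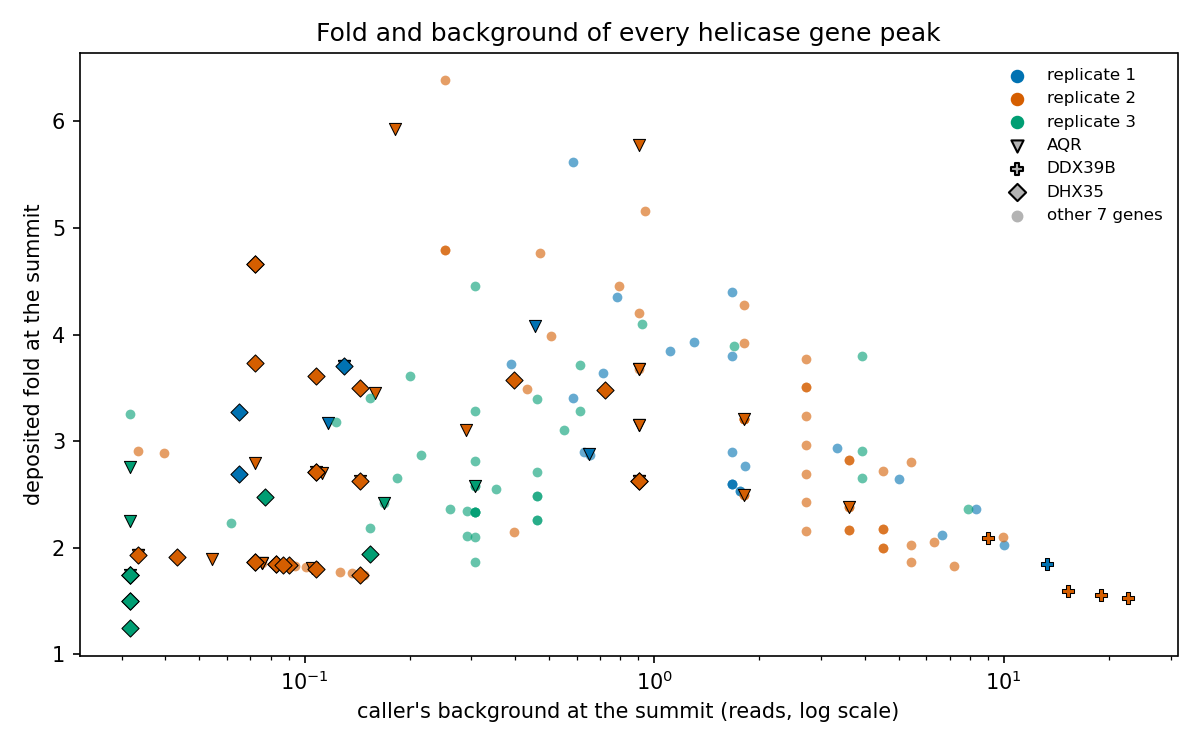
Deposited fold of every helicase gene peak (vertical axis) against the background the caller expected at its summit (horizontal axis, log scale, in reads of that sample). DDX39B, with median backgrounds of 13.3 and 17.1 reads in replicates 1 and 2, had the lowest folds at high background, and DHX35 had backgrounds with medians of 0.0651, 0.0992 and 0.0316 reads. Folds are scaled by list and are not compared between colours.

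Of the genes linked to the catalytic stage, DHX38 carried the most sites. It lies at chr16:72093847-72112912 (plus strand), and 7 sites of at least 2 lists were spread from 0.6% to 99.2% of its span. At 53.3%, within chr16:72103983-72104014, all 3 lists shared 32 bp, with folds of 3.85, 4.28 and 1.87 from 9, 11 and 4 reads. This was the strongest peak of the gene in replicates 1 and 2, with summits 6 bp apart. In replicate 3 the strongest peak was another, at 48.8% with a fold of 2.42, and its reads could be solved as 6 or 49. At 12.5% the peaks of replicates 1 and 2 did not overlap, and their summits lay 174 bp apart. A peak of replicate 3 touched both, and the folds were 3.64, 2.49 and 2.34. With the smaller solution of 6 taken, the reads of DHX38 peaks ranged from 5 to 9, 5 to 11 and 4 to 7, so none had more than 11.

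DHX16, which acts before the first catalytic step, lies at chr6:30653127-30673006 (minus strand) and had 0, 9 and 2 summits. No peak of one list overlapped a peak of another. Its strongest peaks in replicate 2 were a tied pair near the middle of the span, at 50.8% and 51.8%, each with a fold of 4.79, 5 reads and a −log10 q of 2.01. In replicate 3 its strongest peak had a fold of 2.11 from 5 reads at 65.1%. Its peaks were thus nearly all of replicate 2.

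AQR, also called Aquarius, is at chr15:34851782-34969742 (minus strand) and had 5, 23 and 5 summits. Its best site lay at 80.5%, within chr15:34874778-34874819, where replicates 1 and 2 shared 42 bp with folds of 4.08 and 5.78 from 7 and 10 reads. Their summits were 21 bp apart, and replicate 3 had no peak there. Further sites of replicates 1 and 2 lay at 50.5% and 83.9%. In replicate 3, 3 of the 5 peaks were wider than 1000 bp, and 2 of them tied as strongest at a −log10 p of 4.49. One was 9641 bp wide with 7 reads and met no peak of replicate 2. The other was 7219 bp wide with 5 reads, and its summit lay 8 bp from one of replicate 2.

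DDX41, mutated in some inherited blood cancers, is at chr5:177511577-177516961 (minus strand). It had 3, 3 and 0 summits, and no peak overlapped one of another list. Its strongest peaks had folds of 4.40 from 13 reads in replicate 1 and 2.72 from 14 reads in replicate 2, at 60.3% and 40.3% of the span. They were 1078 bp apart. DDX41 thus had deep peaks at different places in the 2 lists.

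DHX35, a DEAH box protein found in the catalytic spliceosome, is at chr20:38962344-39039721 (plus strand) and had 3, 22 and 8 summits. All 3 peaks of replicate 1 met one of replicate 2, at 8.8%, 42.0% and 81.4% of the span. Reads at these sites were 5, 3 and 4 in replicate 1 and 3, 4 and 4 in replicate 2. Backgrounds were 0.0651 to 0.13 reads in replicate 1 and 0.0722, 0.0722 and 0.903 reads in replicate 2. All peaks of replicate 1 thus had a partner in replicate 2, with few reads behind them. In replicate 3, 6 of the 8 peaks were wider than 1000 bp, with 1 to 3 reads at the summit, and all 6 had the same −log10 p of 2.10. That p is the one computed for a summit with no read, and the segment that DHX35 shared among all lists rested on one of them, 5593 bp wide.

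The release and disassembly factors DHX8 and DHX15 each had their strongest peak at the gene start in 2 of the lists. DHX8, which frees spliced mRNA from the spliceosome, is at chr17:43483975-43544799 (plus strand) and had 3, 13 and 10 summits. At its start all 3 lists shared 41 bp, chr17:43484031-43484071, with folds of 3.93, 2.39 and 4.46 from 10, 10 and 15 reads. Summits stood 68, 78 and 173 bp from the annotated start. It was the strongest DHX8 peak of replicates 1 and 3, and the only site near a gene start seen in every list among the 10 genes. A second shared segment of 63 bp, at 59.6% of the span, had folds of 2.87, 3.21 and 2.65 from 5, 8 and 7 reads. The strongest peak of replicate 2, with a fold of 5.16 from 9 reads at 14.6%, had no partner elsewhere. Toward the other end, 5 summits in replicates 2 and 3 also lie in ETV4, and without strand they cannot be told apart.

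DHX15, which dismantles the spliceosome after splicing, is at chr4:24527475-24584554 (minus strand) and had 5, 4 and 8 summits. Its peaks had a median of 16, 14 and 17.5 reads and at most 22, 22 and 26. Its median background was also high, at 6.67, 4.96 and 2.81 reads, second to DDX39B among the 10 genes in replicates 1 and 2. Folds in replicate 1 stood at percentiles 6.28 to 57.8 of that list. One peak of replicate 3 had 1 read, was 4421 bp wide and had its summit in RN7SL16P. The strongest peaks of replicates 2 and 3 lay 118 and 141 bp from the annotated start, with folds of 2.80 and 4.10 from 17 and 16 reads. Replicate 1 had no peak there, and its strongest stood at 14.1% with 22 reads. That position was shared with replicate 3 (17 reads), while the site at 52.1% was shared by replicates 1 and 2 and the site at 99.1% by replicates 2 and 3. Every pair of lists therefore agreed somewhere in DHX15, but never all 3 at the same site. Together with DHX8 and DDX42, DHX15 was one of 3 genes with a summit of at least 10 reads in every list, a rule that 7.09% of protein-coding genes met.

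Summits close to the annotated start were seen in most of the genes. Of the 194 summits, 15 lay within 500 bp of a start, between 42 and 352 bp from it. They fell in 8 of the 10 genes in at least 1 list, against 37.2% of the protein-coding genes whose strand was given, and in 5 genes in at least 2 lists (DHX8, DHX15, DHX38, AQR and DHX35), against 13.0%. By list, 3, 6 and 5 genes had one in replicates 1, 2 and 3, against 12.7%, 23.6% and 16.5%. As a share of summits they made up 9.38%, 6.6% and 8.93% in the helicase genes, close to the 8.74%, 4.11% and 6.92% of all protein-coding genes. The AQR summits of replicates 2 and 3 stood 158 and 150 bp from the start, with 10 and 7 reads, and the DHX38 summits of the same lists 116 and 117 bp, with 8 and 7 reads. These pairs agreed to within 8 bp and 1 bp. The DHX38 site also lies in the span of TXNL4B. At DHX35 the peak of replicate 3 near the start was 11285 bp wide with 3 reads. The window of 500 bp was chosen after positions had been seen.

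**Figure D4:**
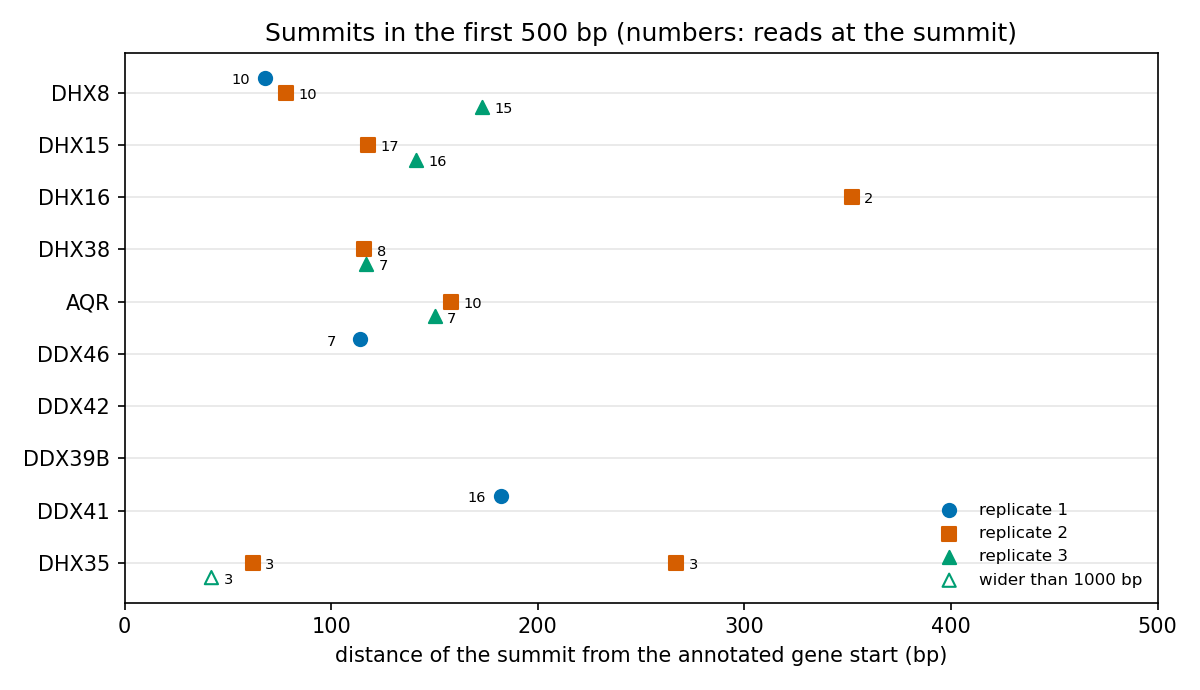
Distance of each summit in the first 500 bp from the annotated start (horizontal axis, bp) in the 10 helicase genes, with the reads at the summit beside each marker. DHX8 is the only gene with a narrow peak from every list, and DHX15, DHX38 and AQR have neighbouring summits from replicates 2 and 3.

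The sequence around the start is shown for DHX8 and DHX38, the genes where a narrow peak covers more than 10 of the first 50 transcribed bases (a peak of replicate 2 covers 2 of them in DHX35). Each line gives the RefSeq window (GRCh38.p14) from 250 bases before the annotated start to 50 after it, 5′ to 3′ on the gene's strand. The windows are chr17:43483725-43484024 and chr16:72093597-72093896, both on the plus strand. Capitals mark the bases covered by the peak of replicate 3 in DHX8 (32 bases) and of replicate 2 in DHX38 (14 bases), and both peaks run on past the window.
DHX8: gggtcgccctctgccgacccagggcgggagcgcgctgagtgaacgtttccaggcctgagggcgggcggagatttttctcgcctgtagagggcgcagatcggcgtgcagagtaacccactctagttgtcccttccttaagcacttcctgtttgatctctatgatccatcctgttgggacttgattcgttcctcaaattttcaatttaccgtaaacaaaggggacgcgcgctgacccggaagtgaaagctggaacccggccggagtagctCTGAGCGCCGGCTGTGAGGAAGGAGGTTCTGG
DHX38: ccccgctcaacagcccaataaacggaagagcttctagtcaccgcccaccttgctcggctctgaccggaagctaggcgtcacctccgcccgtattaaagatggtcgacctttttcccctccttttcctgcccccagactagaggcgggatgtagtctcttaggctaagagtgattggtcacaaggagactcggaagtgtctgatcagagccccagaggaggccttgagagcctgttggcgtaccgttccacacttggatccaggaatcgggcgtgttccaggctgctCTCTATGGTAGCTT
Covered bases began inside the transcribed part in both genes and none lay upstream of the start. These genes were chosen for cover of transcribed bases. The G and C content of their windows was 57.7% in DHX8 and 56.3% in DHX38. In the DHX35 window, a 40 bp peak of replicate 2 covered bases 1 to 9, upstream of the start, with its summit outside the span. The wide peak of replicate 3 covered all 300 bases of that window.

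The ends of the genes held fewer summits. Only 5 lay within 500 bp of an annotated end, in DHX8, DHX15, DHX38 and DDX39B, or 4 of the 10 genes, against 21.9% of protein-coding genes. By list these were 1, 3 and 1 genes, against 4.98%, 16.4% and 6.32%. As a share of summits, those near an end made up 3.12%, 2.83% and 1.79% in the helicase genes. Over all protein-coding genes the shares were 3.47%, 2.89% and 2.71%, so the helicase genes were below them in each list. The DHX8 summit had 1 read and also lies in ETV4, and the DDX39B summit also lies in ATP6V1G2-DDX39B. Both DHX38 summits there, of replicates 1 and 2, stood 136 and 143 bp from the end. The stretch from 80% to 100% of the span held 18.8%, 25.5% and 17.9% of the helicase summits in replicates 1, 2 and 3, and 31.9%, 28.7% and 24.0% of all summits in protein-coding genes. The middle, from 40% to 60%, held 25.0%, 23.6% and 16.1%, against 16%, 16.6% and 17.3%. The next stretch, from 60% to 80%, held 25.0%, 17.0% and 30.4%, against 20%, 19.1% and 18.8%. No stretch between 40% and 80% was thus above all genes in every list. Median summit position was 54.6%, 52.2% and 57.75% of the span, against 62.2%, 57.5% and 51.8%.

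Few of the peaks passed a stricter threshold. A −log10 q of at least 1.3 was reached by 15 of the 194 peaks, 13 of them in replicate 2 and 1 in each other list. They lay in 7 of the 10 genes, where 22.3% of protein-coding genes had such a peak in at least 1 list. The share of peaks at this q was not counted over the whole lists, so whether 15 of 194 is usual is not known. The highest values were those of DDX42 in replicate 2 (4.17) and AQR in replicate 2 (3.82). In replicate 1 the only such peak was the DDX42 peak at 74.8% (1.90), and in replicate 3 the DDX46 peak at 7.1% (1.89). DDX42 was the one gene of the 10 with such peaks in 2 lists, and no gene had them in all 3.

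Shares in 3 lists of related genes were also above those of all protein-coding genes. Of 7 other helicases of the spliceosome, 5 had a summit in every list and 2, DDX17 and DDX5, had a segment shared by all lists, while DDX23, which displaces U1 from the 5′ splice site, had summits but no segment. Of 20 genes of G-patch proteins, the activators of DEAH helicases, 16 had a summit in every list and 4 a shared segment. GPATCH1, a partner of DHX35, held 2 segments, none of them from peaks of at most 1000 bp, and RBM17 and PINX1 held 1 each. Of 40 other DEAD and DEAH box helicases, 27 had a summit in every list and 10 a shared segment, among them DDX10, DHX33 and DHX57 with 2 each. These lists differ in gene length, with median spans of 51.3 kb for the 10 genes and 22.4, 32.3 and 31.0 kb for the 3 lists, and no difference between them was tested.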

How the data were processed

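Reads were handled with cutadapt (version 4.2), STAR (version 2.7.10b) and MACS2 (version 2.2.9.1) on GRCh38, per the submitters' processing notes. The sources used here do not give the background library, caller options, treatment of duplicates or use of strand. The authors deposited 1 narrowPeak list per SNRPD2 overexpression sample, with peak starts, ends and summit offsets, a score (the whole part of 10 times the −log10 p), a fold at the summit, and an unadjusted −log10 p and a −log10 q. All these values are the authors' and serve to describe peaks within their own list.

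Summits were placed in 10 RefSeq gene spans of the same build (GRCh38.p14; 59679 genes, 20037 of them protein-coding, of which 15843 had a strand). Values over all genes for summit position, background, reads at the summit and share of wide peaks used only the protein-coding genes with a strand. No exon annotation was used here. Reads were solved from the deposited fold, read as scaled pileup plus 1 over background plus 1, and the deposited −log10 p, read as the Poisson tail of the scaled pileup cut to a whole number. The height of 1 read was 0.599, 1 and 0.254. A single whole number fitted within 0.001 for 94.2%, 99.6% and 97.7% of peaks; where several did, the smallest was taken, and 30 peaks of replicate 3 had none. Library depth is otherwise unknown. Segments are stretches of at least 20 bp covered by every list and are placed by their midpoint. No test was made, since lists of 1 group were analysed. The steps were tested on simulated data, but not at the height of 1 read found in replicate 3. Peaks below 1 in the scaled pileup had little or no part in that simulation.

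Members and lists were chosen with earlier results of these data known. All 10 genes were named, with the peak of highest −log10 p per list, every shared segment and up to 3 genes per further list; other peaks and sites were chosen after their values were seen. Alternatives were a stricter q, at least 10 reads, narrow peaks, equal lists, other overlap and span rules, and leaving out each replicate. A scaled pileup of at least 1 was added after the data were seen. Python 3.11.15, numpy, pandas and scipy were used.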

Additional observations from a re-analysis of the deposited data

How the results depend on the processing

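The count of genes with a summit in every list (7) was 3 with at least 10 reads and 0 when −log10 q had to reach 1.3; it was 7 to 9 when each replicate was left out. Genes with a segment covered by every list (4) numbered 2 with at least 10 reads, 0 at that q and 0 for segments of at least 100 bp. The number was 5 to 7 when each replicate was left out, where fewer lists have to meet in every case. The 7 were without replicate 1, and 56.2% of protein-coding genes had a segment covered by replicates 2 and 3. Summits per 10 kb (1.33) were 0.356 with at least 10 reads and 0.103 at that q, and 0.903 to 1.66 when each replicate was left out; lists of equal length (30111 peaks) gave 0.876, a move smaller than the SD between replicates. The share of replicate 1 peaks that overlapped replicate 2 (43.8%) was 20% with at least 10 reads (2 of 10 peaks), 0% at that q (0 of 1 peak) and 21.9% with reciprocal overlap of 50%; other ordered pairs gave 13.2% to 44.6%. Lists of equal length otherwise gave 7 genes with a summit, 3 with a segment and 31.2% overlap. The remaining settings, narrow peaks, a scaled pileup of at least 1, any overlap of the span and exclusion of other genes, kept the values they gave within 1.5 times. No paired analysis was possible because lists of 1 group only were analysed here. Reads at a summit, mostly under 10, limit all of these values.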

Other observations

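The promoter windows of the 10 genes shared letters that the choice of genes had not used. CCGGAAG, the core of binding sites of ETS transcription factors, was found on either strand in 7 of the 10 windows (DDX46, DHX16, DDX39B, AQR, DHX38, DHX8 and DDX42) and in 14.2% of 15843 windows of protein-coding genes of the same length. TATAAA, the core of the TATA box, was found in 1 of the 10, that of DDX39B, and in 9.63% of all. The median G and C content was 58.8% in the 10 windows and 62.7% in all. These letters were searched after some of the sequences had been seen, no test was made, and a match is not a bound site.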
